A study of Mus musculus with 4 samples.

Results

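Genes for enzymes that add methyl groups to histones or remove them, with core subunits of their complexes, were followed by RNA sequencing in mouse MLL-AF9 leukaemic bone marrow cells of strain C57BL/6. Members were chosen by symbol: all genes whose names start with Setd, Suv, Kdm, Prmt, Ehmt, Prdm or Smyd, plus Ezh1, Ezh2, Eed, Suz12, Nsd1, Whsc1, Whsc1l1, Ash1l, Ash2l, Jmjd1c and Jmjd6, with 1 Kdm gene left out by the rule. Of 69 such symbols, 56 reached 1 FPKM (fragments per kilobase of transcript, scaled to the depth of the library) in at least 1 library, out of 10922 symbols that did so in all. The 4 libraries were Meis1f/f 4-OHT, Meis1f/f vehicle, control 4-OHT and control vehicle, with 1 library each. Meis1f/f cells had the genotype Meis1f/fCreER+/- MLL-AF9-/+, that is floxed Meis1 alleles, a tamoxifen-activated Cre recombinase and an MLL-AF9 allele. Control cells had the genotype MLL-AF9-/+ alone and carried no CreER per the labels. The agent was 1000 nM 4-hydroxytamoxifen (4-OHT) for 24 h or its vehicle, and the medium of all cells held 4 cytokines (SCF, IL-3, GM-CSF and IL-6, each at 10 ng/ml). The design sets 4-OHT against vehicle in both genotypes, so that recombinase activation and loss of Meis1 cannot be told apart. No group had a replicate, so no difference below has a test or a p-value, and whether a difference is larger than the spread between cultures is not known.

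Histone methylation is written by SET-domain lysine methyltransferases and by protein arginine methyltransferases (PRMT), and removed by the flavin-dependent LSD1 family and by JmjC-domain dioxygenases. The site decides the meaning: H3K4 and H3K36 methylation mark active promoters and transcribed gene bodies, and H3K9 and H3K27 methylation mark silenced chromatin. The MLL gene that is cut by the MLL-AF9 fusion encodes an H3K4 methyltransferase, and the fusion loses the SET domain. Several of the enzymes measured here, among them PRC2 and LSD1, are known dependencies of MLL-rearranged leukaemia.

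The promoter windows of 4 members that the results below turn on are shown, each from 250 bases before to 50 bases after a gene start in RefSeq (build GRCm38.p6), read 5′ to 3′ on the gene's strand. Ehmt2 and Kdm4a were on opposite sides of the size rule in the difference of the 4-OHT effects. Ezh2 and Ezh1 are the alternative catalytic subunits of PRC2. Capitals mark matches on either strand to TGACAG (the MEIS motif), TTACGTAA (the motif of PAR bZIP factors such as HLF), CACGTG (E-box) or CCAAT. None of these motifs contains another.
Ehmt2: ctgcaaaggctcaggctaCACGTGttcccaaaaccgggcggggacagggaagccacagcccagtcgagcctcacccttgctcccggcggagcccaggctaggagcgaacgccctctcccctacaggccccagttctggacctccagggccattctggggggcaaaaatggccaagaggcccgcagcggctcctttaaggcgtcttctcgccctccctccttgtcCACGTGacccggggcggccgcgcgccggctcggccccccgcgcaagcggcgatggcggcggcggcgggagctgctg
Kdm4a: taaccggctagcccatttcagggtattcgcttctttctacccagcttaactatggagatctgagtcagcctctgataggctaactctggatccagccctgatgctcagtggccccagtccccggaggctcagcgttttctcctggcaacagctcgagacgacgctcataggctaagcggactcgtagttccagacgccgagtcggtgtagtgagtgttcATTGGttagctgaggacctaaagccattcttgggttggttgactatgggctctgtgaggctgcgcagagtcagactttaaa
Ezh2: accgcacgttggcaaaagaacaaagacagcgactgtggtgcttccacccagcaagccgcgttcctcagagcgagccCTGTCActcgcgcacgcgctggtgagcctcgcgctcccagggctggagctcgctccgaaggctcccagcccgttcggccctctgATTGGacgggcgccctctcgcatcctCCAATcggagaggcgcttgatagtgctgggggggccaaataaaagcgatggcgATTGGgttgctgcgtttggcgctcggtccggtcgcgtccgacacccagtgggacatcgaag
Ezh1: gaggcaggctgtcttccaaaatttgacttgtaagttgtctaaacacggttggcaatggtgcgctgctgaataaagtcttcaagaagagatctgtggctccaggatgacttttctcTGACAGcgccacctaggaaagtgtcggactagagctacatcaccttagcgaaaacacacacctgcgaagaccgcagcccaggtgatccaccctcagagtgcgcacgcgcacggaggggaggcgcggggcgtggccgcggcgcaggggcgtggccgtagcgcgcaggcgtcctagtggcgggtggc
These windows lie at chr17:34898224-34898523 (plus strand), chr4:118179994-118180293 (minus), chr6:47594981-47595280 (minus) and chr11:101226414-101226713 (minus), and Ehmt2 has a further listed start that is not shown. The Ezh2 and Ezh1 windows each hold 1 MEIS motif, the Ehmt2 window holds CACGTG at 2 places and the Kdm4a window holds 1 CCAAT. Of the members, 44 had an entry, with 58 windows in all. TGACAG was in 8 member windows (13.8%), those of Ezh1, Ezh2, Jmjd1c, Prmt1, Prmt5, Setd7, Setdb2 and Suv420h2, against 19.2% of all 32851 windows. CACGTG was in 8 (13.8%, against 7.15%), CCAAT in 27 (46.6%, against 37.4%) and TTACGTAA in 0 (against 0.119%). Member windows had a median GC content of 62.8% and a median of 25 CpG, against 52.7% and 7 CpG over all windows. A match is a description of the letters and not a binding site.

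Estimated depth was 18.0 M, 42.6 M, 22.1 M and 28.2 M reads (M for mega) in the Meis1f/f 4-OHT, Meis1f/f vehicle, control 4-OHT and control vehicle libraries. Per the sheet names the Meis1f/f vehicle library was run in lane 1 and the other 3 in lane 2, so for that library lane and group cannot be told apart. Meis1, the targeted gene, was at 7.38 FPKM with 4-OHT and 11.8 FPKM with vehicle in Meis1f/f cells, and 12.1 FPKM with 4-OHT and 11.6 FPKM with vehicle in control cells. Set against vehicle, Meis1 with 4-OHT had a ratio of 0.625 (0.563 to 0.693) in Meis1f/f cells and 1.05 (0.958 to 1.14) in control cells, over the whole transcript and not the floxed part alone. Of 12 myeloid progenitor markers 11 were found and 10 reached 1 FPKM, at summed levels of 2789 to 4817 FPKM, with the granule protein genes Mpo, Elane and Prtn3 the highest. Of the B cell markers none reached 1 FPKM, and Ms4a1 was at 0 in every library. Of 3 T cell markers Cd3e was at 0 in every library and 2 reached 1 FPKM. Cd3g was at 2.41 (4-OHT) and 2.11 FPKM (vehicle) in Meis1f/f cells, and 0.273 (4-OHT) and 0 FPKM (vehicle) in control cells, and Lck was between 0.384 and 1.06 FPKM. Of 5 stroma and endothelium markers only Pecam1 reached 1 FPKM, at 19.2 to 34.3 FPKM. The summed level of 6 mast cell and basophil markers was 1934 FPKM in Meis1f/f 4-OHT and 2400.4 FPKM in Meis1f/f vehicle cells, against 225 and 236 FPKM in control 4-OHT and control vehicle cells. The summed level of 4 erythroid markers was 11.2 and 9.78 FPKM in Meis1f/f 4-OHT and Meis1f/f vehicle cells, against 1.17 and 2.02 FPKM in control 4-OHT and control vehicle cells. Within the myeloid progenitor list Hoxa9 was lower in Meis1f/f cells, at 17.8 (4-OHT) and 12.2 FPKM (vehicle), against 27.1 and 31.3 FPKM in control cells. Cd34 was higher in Meis1f/f cells, at 11.7 (4-OHT) and 9.40 FPKM (vehicle), against 2.01 and 4.91 FPKM in control cells. Also in that list, Mpo, Elane, Prtn3 and Cebpa were lower in Meis1f/f than in control cells under both treatments. Prtn3 was at 1013 (4-OHT) and 505 FPKM (vehicle) in Meis1f/f cells, against 1275 and 1005 FPKM in control cells. Kit and Itgam were higher in Meis1f/f cells under both treatments. For Csf1r, Ptprc and Flt3 the direction differed between the treatments. Summed mast cell and erythroid markers, Cd3g and most markers of the myeloid progenitor list thus moved with genotype. Their part in the genotype differences below was not tested. In bulk RNA, fewer cells of a type and less RNA per cell cannot be told apart.

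The members were expressed at middling levels and in much the same order in all libraries. The mean over the 4 libraries had a median of 12.3 FPKM over members, 32 members averaged at least 10 FPKM and 13 averaged under 5 FPKM. Prmt1, which deposits most asymmetric arginine dimethylation, had the highest level, followed by the H4K20 monomethylase Setd8 and the PRC2 scaffold Suz12, which lies above Setd8 when its 2 rows are summed. Levels here are per kilobase and so can be compared between genes. Spearman's rho of member levels was 0.98 between the Meis1f/f 4-OHT and control 4-OHT libraries and 0.95 between the control libraries, and lay between 0.88 and 0.90 for the Meis1f/f vehicle library against each of the other 3. These are descriptions across 56 genes, which share the library and are not independent. Members just above the level minimum were Prdm16 (highest value 1.15 FPKM) and Prdm15 (2.19 FPKM). Just below it were Prdm9, a meiotic H3K4 methyltransferase (0.936 FPKM), and Setd4 (0.826 FPKM). Also under the minimum were Prdm1, Prdm6, Prdm8, Prdm11, Prdm12, Prdm13, Prdm14, Prmt8, Smyd1 and Kdm4d, of which Prdm6, Prdm12 and Prdm13 were listed at 0 throughout.

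**Figure D1:**
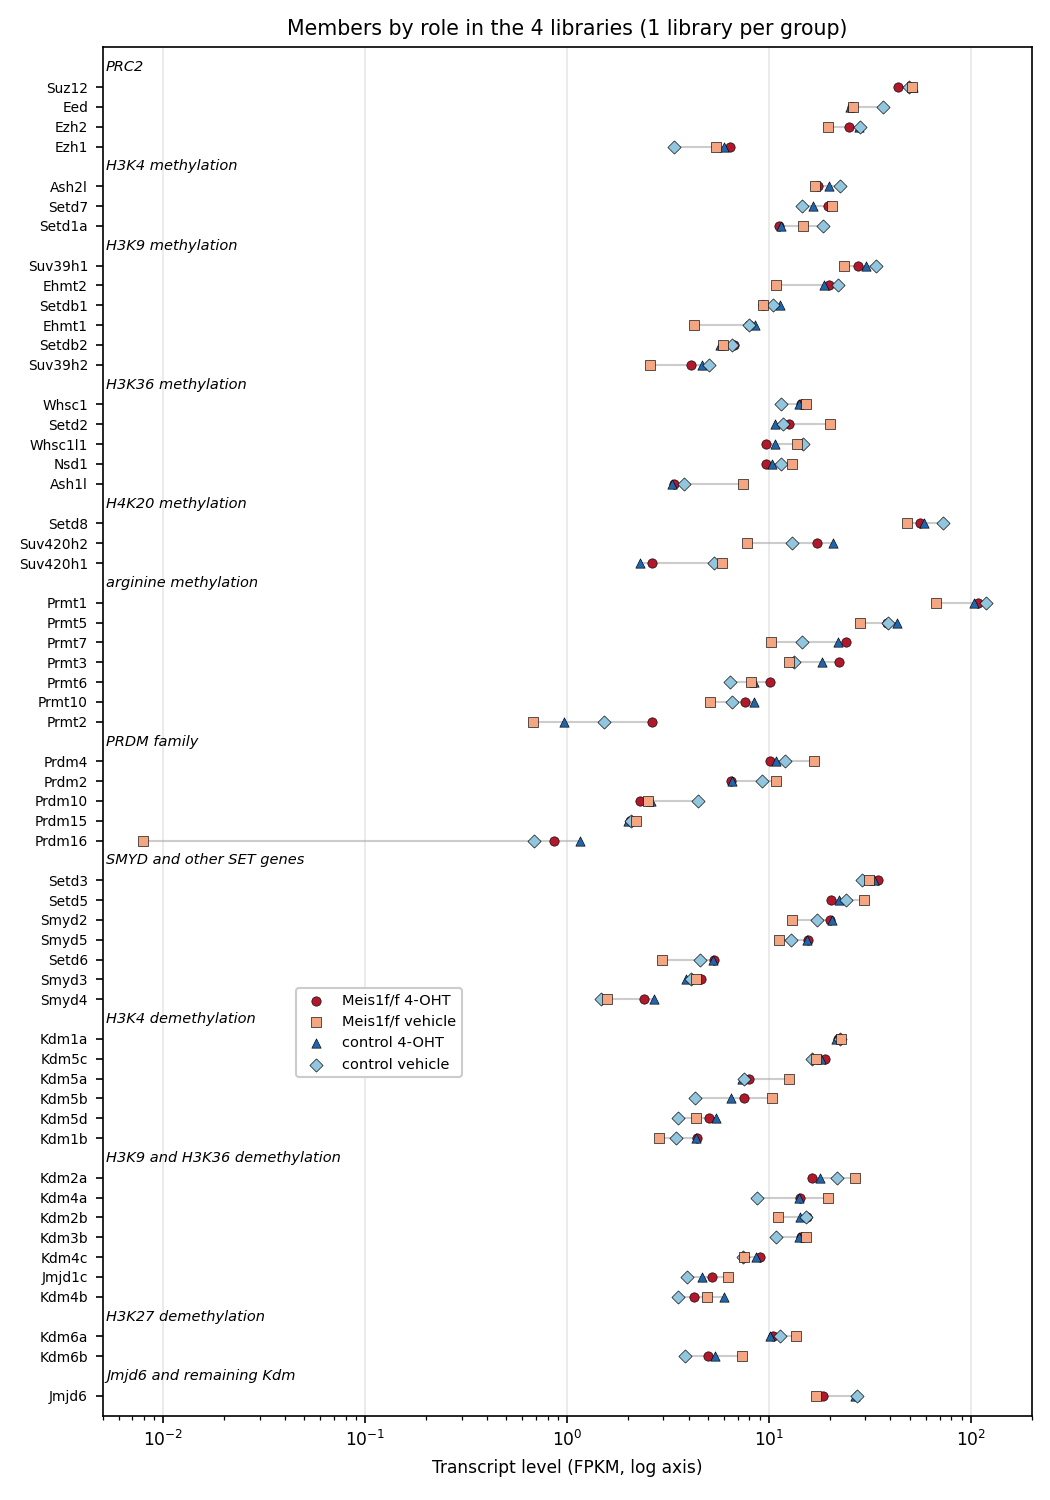
Transcript level (FPKM, log axis) of the 56 members, grouped by role and ordered by mean within a role, with 1 marker per library. The Meis1f/f vehicle library (squares) is the lowest for 21 members and the highest for 19, and the leftmost point, Prdm16 in that library, rests on 1 of its 2 transcript rows.

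The Meis1f/f vehicle library stood at the edge of the range for most members. It held the lowest of the 4 values for 21 members and the highest for 19 (37.5% and 33.9%, against 40.2% and 24.3% of all genes). The other libraries held the highest value for 14 members (Meis1f/f 4-OHT), 11 (control 4-OHT) and 12 (control vehicle). In 46 of 56 members the highest value was less than 2 times the lowest. Differences below are between values of log2(FPKM + 1), a scale on which low genes differ by less than their ratios. The size rule calls a gene higher or lower once such a difference reaches 1 in either direction. Ratios are of FPKM, with 95% exact binomial intervals from estimated reads that cover counting error only.

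With 4-OHT in Meis1f/f cells 3 members were higher by the size rule, Prmt7, Prmt2 and Suv420h2, and 0 were lower, where 1.63% and 2.28% of all genes were. The median over members was 0.08 (log2), with 30 of 56 above 0, beside a median of 0.11 over all genes, of which 60.6% were above 0. In control cells 4-OHT went with 0 members higher and 0 lower, where 1.37% and 0.879% of all genes were, and the member median was 0.03 with 28 above 0. In the difference of the effects, that is the one in Meis1f/f minus the one in control cells, Prmt2 and Ehmt2 were higher and Kdm4a was lower (2.11% and 3.63% of all genes), and the median was 0.03. Under vehicle, Kdm4a and Kdm5b were higher in Meis1f/f than in control cells and 0 members were lower, where 5.84% and 2.11% of all genes were. Here 29 of 56 members and 45.5% of all genes were above 0, with an all-gene median of -0.06. Between the 4-OHT libraries 0 members were higher or lower in Meis1f/f than in control cells, where 3.72% and 1.61% of all genes were. With counts of 0 to 3 of 56, little can be read from the members' shares against these. Median ratio rescaling of the libraries moved the calls with 4-OHT in Meis1f/f cells over all genes to 114 higher and 353 lower, against 178 and 249 as deposited, and those among members to 2 higher (Prmt2, Prmt7) and 2 lower (Ash1l, Suv420h1). In the difference of the effects, upper quartile rescaling gave 178 higher and 487 lower, against 231 and 396. The comparisons share libraries: each library enters 1 comparison of 4-OHT with vehicle, 1 of the genotypes and the difference of the effects.

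**Figure D2:**
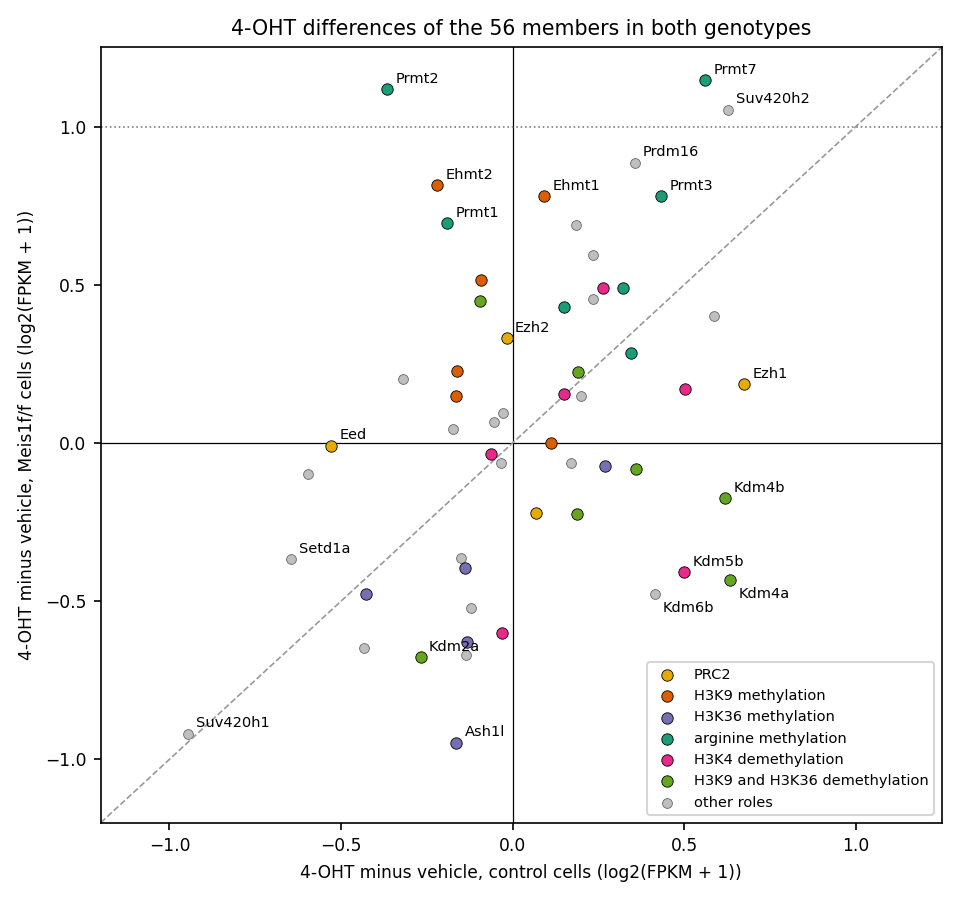
Difference of 4-OHT from vehicle (log2(FPKM + 1)) in Meis1f/f cells (vertical axis) against that in control cells (horizontal axis) for each of the 56 members, coloured by role. The dotted line is the size rule of 1, the dashed line marks equal differences. All 7 arginine methyltransferases lie above 0 on the vertical axis and all 5 H3K36 methyltransferases below it. Of all genes, 60.6% were above 0 in Meis1f/f cells.

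Among the members the genotypes were closer under 4-OHT than under vehicle. Meis1f/f differed from control cells by 0.5 (log2) or more for 2 of 56 members under 4-OHT (3.57%, against 15.6% of all genes), and these were Prmt2 and Jmjd6. Under vehicle 20 of 56 did so (35.7%, against 32.4% of all genes). Ratios of Meis1f/f to control had counting intervals that held 1 for 32 of 56 members under 4-OHT (57.1%, against 47.7% of all genes) and for 10 of 56 under vehicle (17.9%, against 20.6% of all genes). The deeper sequencing of the vehicle libraries makes their intervals narrower. An example is Kdm4a, an H3K9 and H3K36 demethylase, which was at 14.3 FPKM with 4-OHT and 19.6 FPKM with vehicle in Meis1f/f cells, and 14.1 FPKM with 4-OHT and 8.74 FPKM with vehicle in control cells. The 4-OHT libraries differed by 0.02 (log2) for Kdm4a and the vehicle libraries by 1.08.

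Genotype differences under vehicle went with transcript length. Members have long transcripts, with a median of 4226 bases against 2642 bases over all genes, and a range from 1272 bases (Prmt1) to 12784 bases (Nsd1). Across members, Spearman's rho of length with the difference of Meis1f/f from control was 0.63 under vehicle and 0.05 under 4-OHT, and over all genes it was 0.25 and 0.03. Of the 21 members over 5000 bases, 18 were above 0 under vehicle (median 0.28) and 16 had their highest value in the Meis1f/f vehicle library. Of the 35 members up to 5000 bases, 11 were above 0 (median -0.31) and 19 had their lowest value there. The same classes over all genes had medians of 0.22 and -0.10, with 69.02% and 41.6% of genes above 0. Of long genes, 46.3% had their highest value in the Meis1f/f vehicle library, and 43.7% of the shorter class had their lowest value there. After the median difference of all genes of like length was subtracted, rho across members was still 0.45 under vehicle. For 4-OHT in Meis1f/f cells, which uses the same library with the opposite sign, rho across members was -0.64 as deposited and -0.49 after the subtraction. In control cells it was -0.02. Length is therefore given beside many of the members below. Long members without it there are Prdm16 (8433 bases), Jmjd1c (8382), Setd7 (7356), Prdm2 (7308), Kdm3b (7112) and Whsc1 (6919). Further ones are Prdm15 (6346 bases), Kdm5c (6267), Suv420h1 (6071 on the row used), Kdm5d (5471) and Kdm6a (5265). The part of length in the members' differences was not tested beyond the subtraction.

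**Figure D3:**
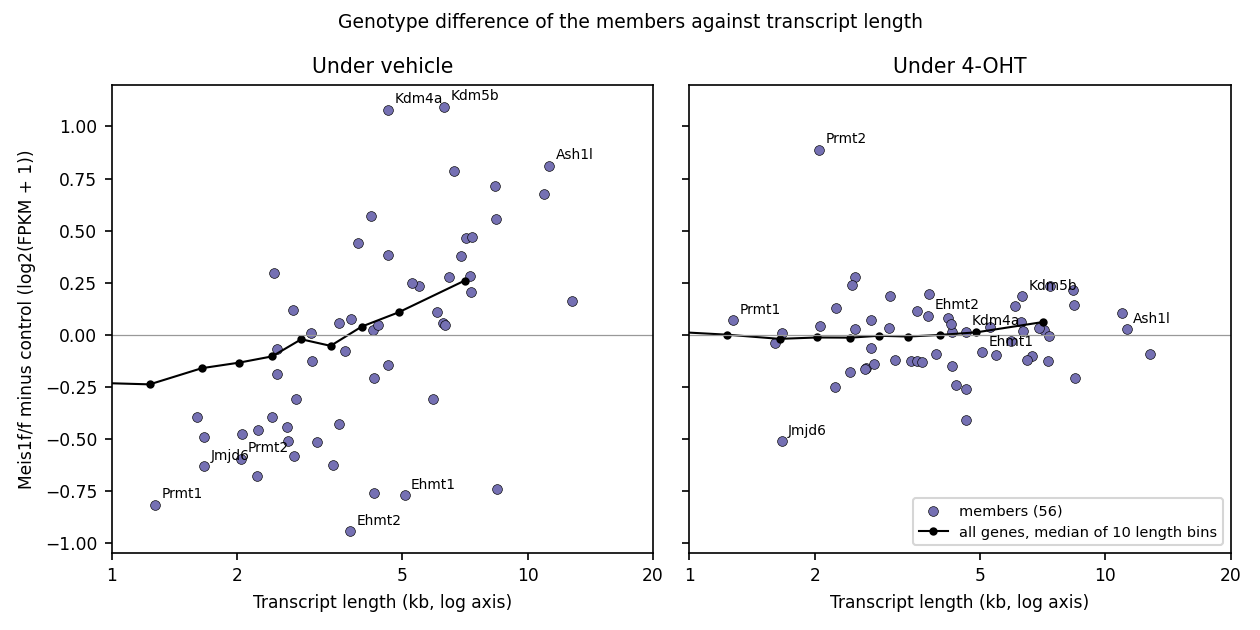
Difference of Meis1f/f from control cells (log2(FPKM + 1)) against transcript length (kb, log axis) for the 56 members (points), under vehicle (left) and 4-OHT (right). The black line joins the medians of all 10922 genes in 10 bins of length, at each bin's median length. Under vehicle the members spread from -0.94 to 1.10 and climb with length, and under 4-OHT all but Prmt2 and Jmjd6 lie within 0.5 of 0.

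PRC2 methylates H3K27 and carries either Ezh2 or Ezh1 as its catalytic subunit. Ezh2, the main catalytic subunit of dividing cells (2652 bases), was at 24.9 FPKM with 4-OHT and 19.6 FPKM with vehicle in Meis1f/f cells, and 28.0 FPKM with 4-OHT and 28.3 FPKM with vehicle in control cells. Ezh1, its less active paralogue (4194 bases), was at 6.38 FPKM with 4-OHT and 5.49 FPKM with vehicle in Meis1f/f cells, and 5.99 FPKM with 4-OHT and 3.37 FPKM with vehicle in control cells. The control vehicle library was thus the lowest for Ezh1, and the Meis1f/f vehicle library was the lowest for Ezh2. In control cells Ezh1 was 1.77-fold higher (1.56 to 2.02) with 4-OHT, and in Meis1f/f cells it was 1.16-fold higher (1.04 to 1.30). Ezh2 was 1.27-fold higher (1.18 to 1.37) with 4-OHT in Meis1f/f cells, and its ratio in control cells was 0.987 (0.925 to 1.05). With rows summed, the ratio of Ezh1 to Ezh2 was 0.225 in Meis1f/f 4-OHT, 0.251 in Meis1f/f vehicle, 0.190 in control 4-OHT and 0.106 in control vehicle cells. Eed, which reads H3K27 trimethylation and boosts the enzyme, was at 25.9 (4-OHT) and 26.1 FPKM (vehicle) in Meis1f/f cells, and 25.1 (4-OHT) and 36.7 FPKM (vehicle) in control cells. Only the control vehicle library stood apart for Eed, and the ratio of 4-OHT to vehicle there was 0.684 (0.636 to 0.736). Suz12, the scaffold, was at 43.7 (4-OHT) and 51.1 FPKM (vehicle) in Meis1f/f cells, and 51.9 (4-OHT) and 49.5 FPKM (vehicle) in control cells. Its 2 rows together were at 59.4 (4-OHT) and 59.1 FPKM (vehicle) in Meis1f/f cells, and 60.7 (4-OHT) and 63.0 FPKM (vehicle) in control cells. No PRC2 member passed the size rule in any of the 5 comparisons.

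The genes of H3K9 methylation were lower in Meis1f/f than in control cells under vehicle, all 6 of 6, with a median of -0.64, in a comparison where 45.5% of all genes were above 0. None reached the size rule there. With 4-OHT in Meis1f/f cells 5 of 6 were above 0 (median 0.37), and in control cells 2 of 6 were (median -0.13). Of all genes 60.6% and 55.2% were. Ehmt2 (G9a), which with Ehmt1 (GLP) makes H3K9 mono- and dimethylation in euchromatin, was at 19.9 FPKM with 4-OHT and 10.9 FPKM with vehicle in Meis1f/f cells, and 18.6 FPKM with 4-OHT and 21.9 FPKM with vehicle in control cells. The Meis1f/f vehicle library alone was low. Ehmt2 was 2.01-fold lower (1.89 to 2.14) in Meis1f/f than in control cells under vehicle, and 1.83-fold higher (1.70 to 1.97) with 4-OHT in Meis1f/f cells. Its difference of the effects was 1.04 (log2), and 1.07 after subtraction of the median of like length (3746 bases). With its 2 rows summed Ehmt2 was at 32.9 (4-OHT) and 17.1 FPKM (vehicle) in Meis1f/f cells, and 34.6 (4-OHT) and 35.6 FPKM (vehicle) in control cells. Its difference of the effects was then 0.95, just under the size rule, and it had a difference of -1.02 between the vehicle libraries. Ehmt1 (5062 bases) had the same low value, at 8.0 (4-OHT) and 4.24 FPKM (vehicle) in Meis1f/f cells, and 8.52 (4-OHT) and 7.94 FPKM (vehicle) in control cells. Summed over its 4 rows it was at 12.6 (4-OHT) and 8.03 FPKM (vehicle) in Meis1f/f cells, and 11.6 (4-OHT) and 11.9 FPKM (vehicle) in control cells. Suv39h1 and Suv39h2, the trimethylases of heterochromatin, were lowest in the same library. Suv39h1 was at 27.7 (4-OHT) and 23.5 FPKM (vehicle) in Meis1f/f cells, and 30.2 (4-OHT) and 33.9 FPKM (vehicle) in control cells. Suv39h2 was at 4.12 (4-OHT) and 2.58 FPKM (vehicle) in Meis1f/f cells, and 4.68 (4-OHT) and 5.06 FPKM (vehicle) in control cells, and 1.96-fold lower (1.73 to 2.21) in Meis1f/f than in control cells under vehicle. Setdb1, which works with TRIM28 at endogenous retroviruses, lay between 9.35 and 11.4 FPKM, and Setdb2 between 5.74 and 6.68 FPKM. For this group the like-length median did not remove the difference: under vehicle 0 of 6 were above it, and their median relative to it was -0.63. Under median ratio and upper quartile rescaling 0 of 6 were above 0 as well.

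**Figure D4:**
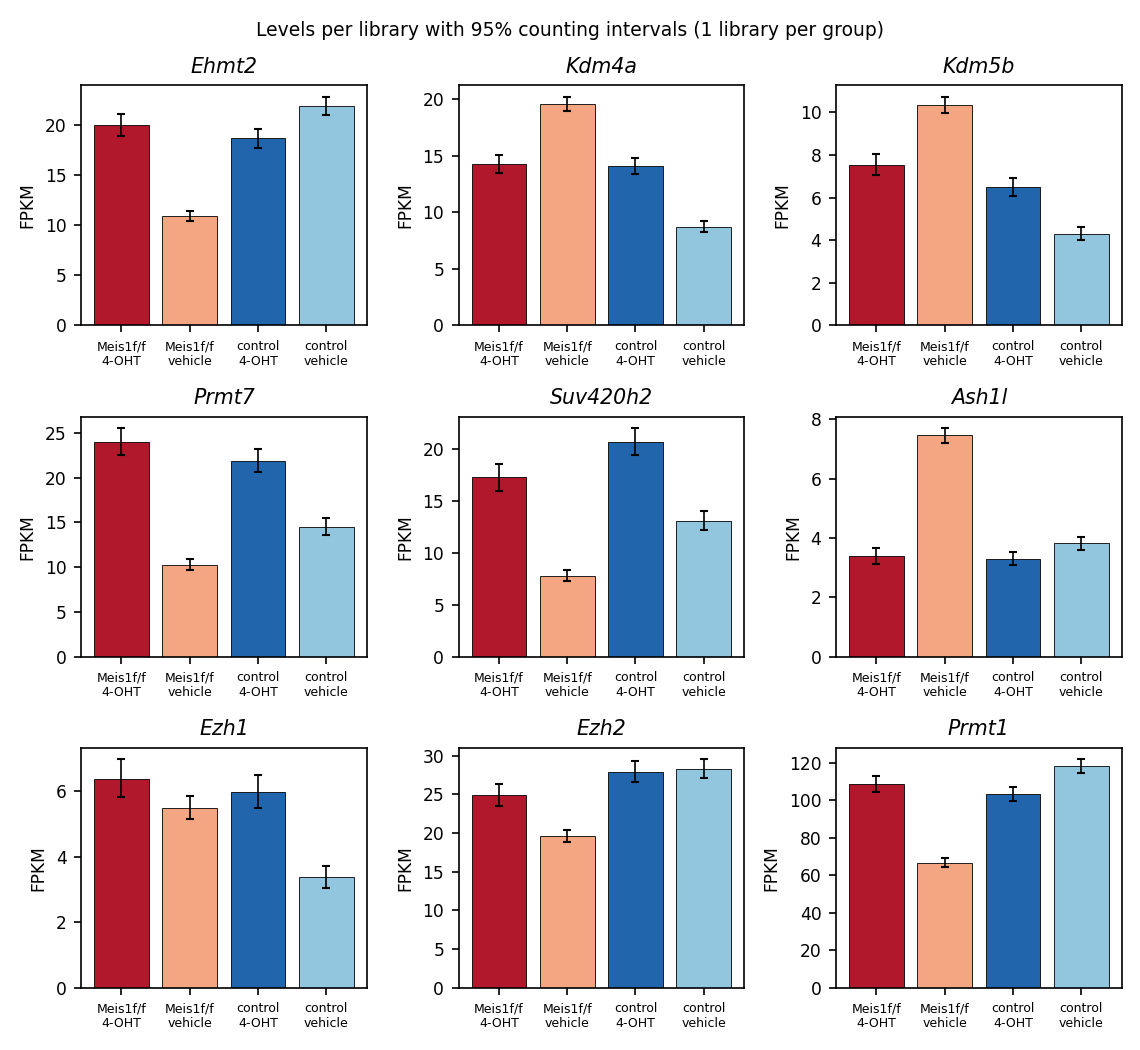
Level (FPKM) of 9 members in each library, as bars from 0, with 95% counting intervals from estimated reads, which leave out variation between cultures. Ehmt2, Prmt7, Suv420h2 and Prmt1 are lowest in the Meis1f/f vehicle library and Kdm4a, Kdm5b and Ash1l are highest there, while Ezh1 is lowest in control vehicle.

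Enzymes of H3K36 methylation were all lower with 4-OHT in Meis1f/f cells, 5 of 5 (median -0.48), with 0 past the size rule. In control cells 4 of 5 were below 0 (median -0.14). Of all genes, 60.6% were above 0 in Meis1f/f and 55.2% in control cells. In the class of long genes defined above, 40.4% of all genes were above 0 in Meis1f/f cells. Every member of this group but Whsc1l1 is in that class on the row used. With the like-length median subtracted 1 of 5 was above 0 in Meis1f/f cells. Ash1l (11270 bases), a trithorax-group H3K36 methyltransferase, was at 3.38 FPKM with 4-OHT and 7.45 FPKM with vehicle in Meis1f/f cells, and 3.30 FPKM with 4-OHT and 3.82 FPKM with vehicle in control cells. Its Meis1f/f vehicle value was the only one above 4 FPKM. With 4-OHT Ash1l was 2.20-fold lower (2.03 to 2.39) in Meis1f/f cells and 1.16-fold lower (1.06 to 1.27) in control cells, and under vehicle it was 1.95-fold higher (1.83 to 2.09) in Meis1f/f than in control cells. Setd2 (8350 bases), the H3K36 trimethylase that travels with RNA polymerase II, was at 12.5 (4-OHT) and 20.0 FPKM (vehicle) in Meis1f/f cells, and 10.7 (4-OHT) and 11.8 FPKM (vehicle) in control cells. The dimethylases differed less. Nsd1 was at 9.65 (4-OHT) and 13.0 FPKM (vehicle) in Meis1f/f cells, and 10.4 (4-OHT) and 11.5 FPKM (vehicle) in control cells. Whsc1 (NSD2) was at 14.5 (4-OHT) and 15.3 FPKM (vehicle) in Meis1f/f cells, and 14.1 (4-OHT) and 11.5 FPKM (vehicle) in control cells. Whsc1l1 (NSD3) was the shortest of the 5 on the row used (3630 bases) and lower with 4-OHT in both genotypes. That row was at 9.67 (4-OHT) and 13.8 FPKM (vehicle) in Meis1f/f cells, and 10.7 (4-OHT) and 14.7 FPKM (vehicle) in control cells. Its other row (9945 bases) was at 2.53 (4-OHT) and 4.09 FPKM (vehicle) in Meis1f/f cells, and 2.17 (4-OHT) and 3.13 FPKM (vehicle) in control cells. Which protein form each row encodes was not examined. With the like-length median subtracted, the group's median between the vehicle libraries was 0.12, against 0.38 as deposited, with Ash1l at 0.55 and Setd2 at 0.45.

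The H3K4 methylation genes showed no shared direction. Setd1a, catalytic subunit of a COMPASS complex (5931 bases), was at 11.3 FPKM with 4-OHT and 14.8 FPKM with vehicle in Meis1f/f cells, and 11.5 FPKM with 4-OHT and 18.6 FPKM with vehicle in control cells. Setd1a was 1.32-fold lower (1.23 to 1.41) with 4-OHT in Meis1f/f cells and 1.61-fold lower (1.52 to 1.72) in control cells, so the 4-OHT libraries were the lowest in both genotypes. Setd7, a lysine monomethylase with many substrates besides histones, was at 19.6 (4-OHT) and 20.5 FPKM (vehicle) in Meis1f/f cells, and 16.5 (4-OHT) and 14.5 FPKM (vehicle) in control cells. The core subunit Ash2l depended on the transcript row. The row used was at 17.5 (4-OHT) and 16.9 FPKM (vehicle) in Meis1f/f cells, and 19.9 (4-OHT) and 22.5 FPKM (vehicle) in control cells. Its 2 rows together were at 49.8 (4-OHT) and 34.8 FPKM (vehicle) in Meis1f/f cells, and 37.2 (4-OHT) and 30.8 FPKM (vehicle) in control cells. Summed, Ash2l was thus highest in Meis1f/f 4-OHT and lowest in control vehicle cells, which is not the order of the single row.

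The 3 enzymes of H4K20 methylation shared no direction with 4-OHT in either genotype, or between the genotypes under either treatment. In the difference of the effects all 3 were above 0 on the rows used, Suv420h1 by only 0.03. With the like-length median subtracted 0 of 3 were above 0 between the vehicle libraries. Setd8, the monomethylase of dividing cells, was at 55.9 FPKM with 4-OHT and 48.5 FPKM with vehicle in Meis1f/f cells, and 58.4 FPKM with 4-OHT and 73.1 FPKM with vehicle in control cells. Suv420h2, which makes H4K20 trimethylation at heterochromatin (2235 bases), was higher with 4-OHT in both genotypes, 2.21-fold higher (1.99 to 2.46) in Meis1f/f and 1.59-fold higher (1.44 to 1.74) in control cells. Its levels were 17.3 (4-OHT) and 7.80 FPKM (vehicle) in Meis1f/f cells, and 20.7 (4-OHT) and 13.1 FPKM (vehicle) in control cells. Summed over 2 rows it was at 17.3 (4-OHT) and 12.0 FPKM (vehicle) in Meis1f/f cells, and 20.9 (4-OHT) and 15.7 FPKM (vehicle) in control cells, and its difference in Meis1f/f cells was 0.49 (log2) in place of 1.05, no longer past the size rule. Suv420h1, the dimethylase, had 7 rows, and the row used was at 2.63 (4-OHT) and 5.86 FPKM (vehicle) in Meis1f/f cells, and 2.30 (4-OHT) and 5.36 FPKM (vehicle) in control cells. On that row 4-OHT went with lower values in both genotypes. Summed over all rows it was at 6.32 (4-OHT) and 12.6 FPKM (vehicle) in Meis1f/f cells, and 7.59 (4-OHT) and 6.78 FPKM (vehicle) in control cells, so that only the Meis1f/f vehicle library was high and the difference in control cells was 0.14 (log2) in place of -0.95. Its difference of the effects was -1.04 when summed, past the size rule, and 0.03 on the single row.

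**Figure D5:**
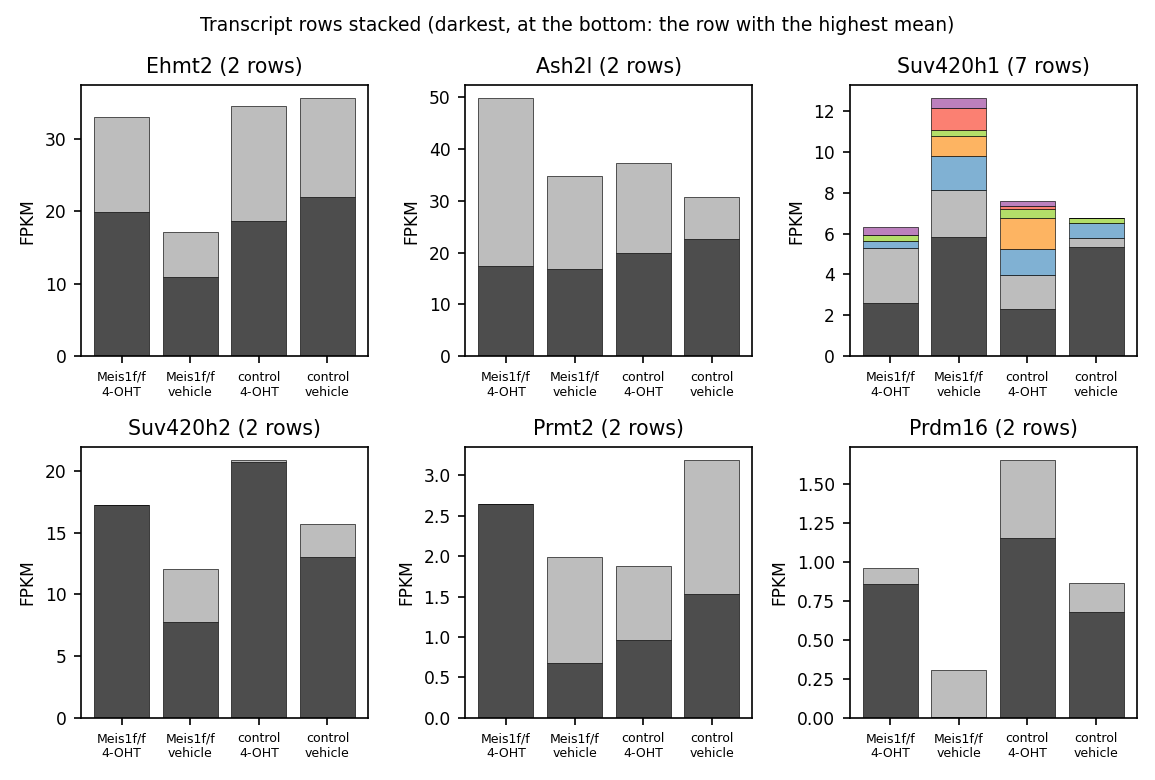
FPKM of each transcript row, stacked, for 6 members with more than 1 row. The darkest part is the row with the highest mean, which was used for the member. In Ehmt2, Suv420h1, Ash2l and Prmt2 the order of the libraries by that row differs from the order by the whole stack. In Ehmt2 the lowest library stays the same.

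Arginine methyltransferases were all above 0 with 4-OHT in Meis1f/f cells, 7 of 7, with a median of 0.69, and 2 of them passed the size rule. In control cells 5 of 7 were above 0, with a median of 0.32. The counts above 0 were the same under both rescalings and with the length trend removed, which took the median in Meis1f/f cells down to 0.44. Of all genes, 60.6% were above 0 in Meis1f/f and 55.2% in control cells. Prmt7, a monomethylase (2254 bases), was at 24.0 FPKM with 4-OHT and 10.3 FPKM with vehicle in Meis1f/f cells, and 21.9 FPKM with 4-OHT and 14.5 FPKM with vehicle in control cells. It was 2.33-fold higher (2.13 to 2.55) with 4-OHT in Meis1f/f cells and 1.51-fold higher (1.38 to 1.65) in control cells. After subtraction of the like-length median its difference in Meis1f/f cells was 1.01. Prmt3, a cytosolic enzyme that methylates a ribosomal protein, was likewise higher with 4-OHT in both genotypes, at 22.4 (4-OHT) and 12.6 FPKM (vehicle) in Meis1f/f cells, and 18.3 (4-OHT) and 13.3 FPKM (vehicle) in control cells. Prmt1 (1272 bases) was at 109 FPKM with 4-OHT and 66.9 FPKM with vehicle in Meis1f/f cells, and 104 FPKM with 4-OHT and 118 FPKM with vehicle in control cells, so that the Meis1f/f vehicle library alone was low. Prmt5, the main symmetric dimethylase, was at 38.4 (4-OHT) and 28.3 FPKM (vehicle) in Meis1f/f cells, and 43.1 (4-OHT) and 38.8 FPKM (vehicle) in control cells. Prmt6, an H3R2 methyltransferase, and Prmt10 ranged from 6.45 to 10.2 FPKM and from 5.13 to 8.48 FPKM. Prmt2 was low, and its values differed between 2 rows of nearly equal length. The row used was at 2.64 (4-OHT) and 0.677 FPKM (vehicle) in Meis1f/f cells, and 0.966 (4-OHT) and 1.53 FPKM (vehicle) in control cells, and the other row was near 0 in Meis1f/f 4-OHT cells alone. Both rows together were at 2.64 (4-OHT) and 1.99 FPKM (vehicle) in Meis1f/f cells, and 1.88 (4-OHT) and 3.19 FPKM (vehicle) in control cells, and no difference of Prmt2 passed the size rule when summed. Under vehicle 6 of the 7 genes were lower in Meis1f/f than in control cells (median -0.44, beside -0.06 over all genes), and between the 4-OHT libraries 2 of 7 were. With the like-length median subtracted, 2 of 7 were above 0 between the vehicle libraries, Prmt6 and Prmt3, and the median was -0.34. Prmt3 was at 0.03 there, against -0.07 as deposited, where the counting interval of its ratio held 1.

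Among demethylases of H3K4, Kdm1a was level across libraries and Kdm5b was not. Kdm1a (LSD1), the flavin-dependent H3K4 demethylase, was at 22.1 FPKM with 4-OHT and 22.7 FPKM with vehicle in Meis1f/f cells, and 21.6 FPKM with 4-OHT and 22.6 FPKM with vehicle in control cells. The highest value is 1.05 times the lowest. The highest Kdm1a value was in Meis1f/f vehicle cells, and none of the 4 ratios had a counting interval free of 1. Kdm1b (LSD2) was at 4.42 (4-OHT) and 2.86 FPKM (vehicle) in Meis1f/f cells, and 4.36 (4-OHT) and 3.46 FPKM (vehicle) in control cells. The JmjC enzyme Kdm5b (6300 bases) was at 7.54 FPKM with 4-OHT and 10.3 FPKM with vehicle in Meis1f/f cells, and 6.50 FPKM with 4-OHT and 4.30 FPKM with vehicle in control cells. It was 2.40-fold higher (2.22 to 2.60) in Meis1f/f than in control cells under vehicle, a log2 difference of 1.10, or 0.83 after subtraction of the like-length median. With 4-OHT Kdm5b was 1.37-fold lower (1.27 to 1.48) in Meis1f/f cells and 1.51-fold higher (1.37 to 1.67) in control cells. Kdm5a (10969 bases) was at 7.96 (4-OHT) and 12.6 FPKM (vehicle) in Meis1f/f cells, and 7.34 (4-OHT) and 7.52 FPKM (vehicle) in control cells, high in Meis1f/f vehicle cells alone. Kdm5c and Kdm5d, homologues on the X and Y chromosomes may share reads, so the split between them is uncertain. Kdm5c was at 19.0 (4-OHT) and 17.0 FPKM (vehicle) in Meis1f/f cells, and 18.2 (4-OHT) and 16.3 FPKM (vehicle) in control cells. Kdm5d was at 5.03 (4-OHT) and 4.36 FPKM (vehicle) in Meis1f/f cells, and 5.46 (4-OHT) and 3.56 FPKM (vehicle) in control cells, lowest in control vehicle cells.

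Demethylases of H3K9 and H3K36 were higher in Meis1f/f than in control cells under vehicle for 6 of 7 genes (median 0.38), and 1 of them, Kdm4a, passed the size rule. Of all genes, 45.5% were above 0 in that comparison and 5.84% were higher by the size rule. In the class of long genes defined above, which holds Jmjd1c, Kdm2a and Kdm3b, 69.02% of all genes were above 0. With the like-length median subtracted 5 of 7 were above 0, with a median of 0.21, and Kdm4a was at 0.97, under the size rule. As deposited, Kdm4a (4616 bases) was 2.24-fold higher (2.10 to 2.40) there. With 4-OHT it was 1.37-fold lower (1.29 to 1.47) in Meis1f/f cells and 1.61-fold higher (1.49 to 1.75) in control cells, and its difference of the effects was -1.07 (log2), or -0.99 after subtraction of the like-length median. Kdm4b was at 4.26 (4-OHT) and 4.93 FPKM (vehicle) in Meis1f/f cells, and 5.98 (4-OHT) and 3.54 FPKM (vehicle) in control cells, highest in control 4-OHT cells, while Kdm4c was level at 7.43 to 8.98 FPKM. Kdm3b, an H3K9 demethylase, was at 14.4 (4-OHT) and 15.3 FPKM (vehicle) in Meis1f/f cells, and 14.1 (4-OHT) and 10.8 FPKM (vehicle) in control cells, with control vehicle the lowest. Jmjd1c, a related JmjC protein, was lowest in the same library, at 5.23 (4-OHT) and 6.27 FPKM (vehicle) in Meis1f/f cells, and 4.64 (4-OHT) and 3.95 FPKM (vehicle) in control cells. The CXXC proteins Kdm2a and Kdm2b bind CpG islands and remove H3K36 methylation, and with 4-OHT in Meis1f/f cells Kdm2a was lower and Kdm2b higher. Kdm2a (7265 bases) was at 16.4 FPKM with 4-OHT and 26.8 FPKM with vehicle in Meis1f/f cells, and 18.0 FPKM with 4-OHT and 21.8 FPKM with vehicle in control cells. Kdm2b was at 15.5 (4-OHT) and 11.1 FPKM (vehicle) in Meis1f/f cells, and 14.2 (4-OHT) and 15.3 FPKM (vehicle) in control cells on the row used (3519 bases). Its longer rows (5162 and 5004 bases) lay between 0.494 and 3.58 FPKM. Which protein form each Kdm2b row encodes was not examined, so these values are transcript levels and not demethylase levels. With its 3 rows summed it was at 20.7 (4-OHT) and 13.9 FPKM (vehicle) in Meis1f/f cells, and 18.6 (4-OHT) and 18.0 FPKM (vehicle) in control cells. The ratio of summed Kdm2b to Kdm2a was 1.27 in Meis1f/f 4-OHT, 0.519 in Meis1f/f vehicle, 1.03 in control 4-OHT and 0.823 in control vehicle cells.

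The H3K27 demethylases Kdm6a (UTX) and Kdm6b (JMJD3) were both highest in Meis1f/f vehicle cells. Kdm6a was at 10.4 (4-OHT) and 13.7 FPKM (vehicle) in Meis1f/f cells, and 10.1 (4-OHT) and 11.4 FPKM (vehicle) in control cells. Kdm6b (6644 bases), known as inducible by inflammatory signals, was at 4.99 FPKM with 4-OHT and 7.33 FPKM with vehicle in Meis1f/f cells, and 5.43 FPKM with 4-OHT and 3.83 FPKM with vehicle in control cells. Kdm6b was 1.47-fold lower (1.34 to 1.61) with 4-OHT in Meis1f/f cells and 1.42-fold higher (1.28 to 1.57) in control cells. The opposing PRC2 enzyme Ezh2 was lowest in that same Meis1f/f vehicle library, as were 40.2% of all genes. The other PRC2 enzyme, Ezh1, was lowest in control vehicle cells. Jmjd6, a lysyl hydroxylase that acts on splicing factors, differed by genotype under both treatments: it was at 18.4 FPKM with 4-OHT and 17.2 FPKM with vehicle in Meis1f/f cells, and 26.7 FPKM with 4-OHT and 27.2 FPKM with vehicle in control cells. It was 1.45-fold lower (1.30 to 1.61) in Meis1f/f than in control cells under 4-OHT and 1.58-fold lower (1.46 to 1.71) under vehicle. With 4-OHT its ratios to vehicle were 1.07 (0.968 to 1.19) in Meis1f/f cells and 0.980 (0.901 to 1.07) in control cells, both intervals holding 1.

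In the PRDM family, zinc finger proteins with a SET-related domain, 5 of 14 genes reached the level minimum. Prdm2 (RIZ) was lower with 4-OHT in both genotypes, at 6.52 FPKM with 4-OHT and 10.8 FPKM with vehicle in Meis1f/f cells, and 6.56 FPKM with 4-OHT and 9.20 FPKM with vehicle in control cells. Prdm4 was high in Meis1f/f vehicle cells alone, at 10.1 (4-OHT) and 16.7 FPKM (vehicle) in Meis1f/f cells, and 10.9 (4-OHT) and 12.0 FPKM (vehicle) in control cells. Prdm10 was high in control vehicle cells alone, at 2.30 (4-OHT) and 2.53 FPKM (vehicle) in Meis1f/f cells, and 2.60 (4-OHT) and 4.45 FPKM (vehicle) in control cells. Prdm15 stayed between 2.01 and 2.19 FPKM. Prdm16, needed for haematopoietic stem cells, was at 0.961 (4-OHT) and 0.306 FPKM (vehicle) in Meis1f/f cells, and 1.66 (4-OHT) and 0.868 FPKM (vehicle) in control cells over its 2 rows. Among the remaining SET genes, with functions largely outside histones, 6 of 7 were above 0 with 4-OHT in Meis1f/f cells (median 0.40). In control cells 5 of 7 were (median 0.20). Under either rescaling 5 of 7 were above 0 in Meis1f/f cells. Of all genes, 60.6% were above 0 in Meis1f/f and 55.2% in control cells as deposited. Setd3, the actin histidine methyltransferase, lay between 28.8 and 34.9 FPKM. Setd5 (6470 bases) was at 20.3 (4-OHT) and 29.6 FPKM (vehicle) in Meis1f/f cells, and 22.2 (4-OHT) and 24.2 FPKM (vehicle) in control cells. Setd6, which methylates RelA, was at 5.35 (4-OHT) and 2.94 FPKM (vehicle) in Meis1f/f cells, and 5.31 (4-OHT) and 4.55 FPKM (vehicle) in control cells. Smyd2 was at 20.0 (4-OHT) and 13.0 FPKM (vehicle) in Meis1f/f cells, and 20.6 (4-OHT) and 17.4 FPKM (vehicle) in control cells. Smyd5 was at 15.7 (4-OHT) and 11.2 FPKM (vehicle) in Meis1f/f cells, and 15.4 (4-OHT) and 12.9 FPKM (vehicle) in control cells. Both of these short SMYD transcripts were lowest in Meis1f/f vehicle cells. Smyd3 and Smyd4 lay between 3.91 and 4.63 FPKM and between 1.47 and 2.71 FPKM.

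Partner genes of these enzymes, 75 in 7 lists of which 73 reached 1 FPKM, had medians near 0 in all 5 comparisons. With 4-OHT in Meis1f/f cells 1 was higher and 2 were lower by the size rule (median -0.01), and in control cells 0 were higher or lower (median -0.06). Under vehicle 2 were higher in Meis1f/f than in control cells and 0 were lower, and under 4-OHT 1 was higher and 1 lower. The lower genes with 4-OHT in Meis1f/f cells were Ep300, the p300 acetyltransferase, and the deacetylase Hdac4. Ep300 was at 13.8 FPKM with 4-OHT and 28.8 FPKM with vehicle in Meis1f/f cells, and at 12.8 FPKM with 4-OHT and 16.1 FPKM with vehicle in control cells. Jarid2, which recruits PRC2, was lower in Meis1f/f than in control cells under 4-OHT, at 2.38 against 5.86 FPKM, and was at 5.70 FPKM in Meis1f/f vehicle and 7.05 FPKM in control vehicle cells. The 6 HP1 and H3K9 partners had medians of 0.37 with 4-OHT in Meis1f/f cells, -0.26 in control cells and -0.25 between the vehicle libraries, beside 0.37, -0.13 and -0.64 for the H3K9 methyltransferases. The 9 histone deacetylases at 1 FPKM had medians of 0.40, 0.20 and -0.40 in the same comparisons. The directions with 4-OHT in Meis1f/f cells and between the vehicle libraries are thus not particular to the H3K9 partners. In control cells the lists differed, with 7 of 9 deacetylases and 1 of 6 H3K9 partners above 0. The 7 PRC2 accessory genes had a median of -0.19 with 4-OHT in Meis1f/f cells and -0.23 in control cells.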

How the data were processed

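The submitters' processing notes name Bowtie and the mouse build mm8. For versions, annotation, strand and the program behind the tables nothing is stated in the labels or headers, and deposited coordinates were not used. FPKM values were computed by the authors per transcript, per the file headers, and the coverage column, a signal of read depth per base, was also deposited by the authors. Of 28107 transcript rows, those with status OK in all 4 libraries were kept (394 were not), and each symbol took the row with the highest mean FPKM. Of 56 members, 18 had more than 1 row. Of the symbols under the minimum, 1 is not reported here.

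Coverage times length of low transcripts over 3000 bases with 1 row per symbol peaked at 40 to 50 bases (110 to 150 transcripts per library, against 8 to 12 at 60 to 70). Its median in a window of 30 to 60 bases, 45.3 to 45.8, was taken as 1 read, which gave depth and the counting intervals. At a length of 2 kb a single read adds 0.0278, 0.0117, 0.0226 and 0.0177 FPKM in the Meis1f/f 4-OHT, Meis1f/f vehicle, control 4-OHT and control vehicle libraries. PCR copies are not independent molecules, so the intervals cover counting error only. Reads were not recovered as whole numbers and no count test was run. Differences, on a log2 scale computed here from the deposited FPKM, used a pseudocount of 1, a minimum of 1 FPKM in at least 1 library and a size rule of 1 (log2). Like-length medians came from 10 length bins of all genes. The procedure was tested on simulated data. The class limit of 5000 bases and the 0.5 limit were chosen after values were seen. The members and lists were chosen with earlier results of these data known. Members described one by one were all 4 PRC2 genes, those past the size rule in any comparison and up to 4 per role with the largest difference of the effects. The others are given by range or were named after their values were seen (Kdm1a, Kdm2a, Kdm5c, Jmjd1c, Prmt5 and Whsc1l1). Python 3.11.15, pandas 2.3.3 and SciPy 1.17.1 were used. Promoter sequences are from RefSeq (GRCm38.p6).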

Additional observations from a re-analysis of the deposited data

Results flagged for a closer look

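For 13 of the 56 members 4-OHT went in opposite directions in the 2 genotypes, with both ratios of 4-OHT to vehicle having counting intervals free of 1 (23.2%, against 17.6% of all 10922 genes). Each genotype has 1 library per treatment, so the difference of the effects was not tested. Values below are the difference of the effects (log2), that in Meis1f/f minus that in control cells. Higher with 4-OHT in Meis1f/f and lower in control cells were Prmt2 (1.48), Ehmt2 (1.04), Prmt1 (0.89), Setd8 (0.52) and Suv39h1 (0.39). Lower with 4-OHT in Meis1f/f and higher in control cells were Kdm4a (-1.07), Kdm5b (-0.91), Kdm6b (-0.89), Kdm4b (-0.79), Kdm3b (-0.44), Jmjd1c (-0.41), Suz12 (-0.29) and Setd7 (-0.24). The genes divide by transcript length, from 1272 to 3746 bases in those higher in Meis1f/f cells and from 4373 to 8382 bases in those lower, and the part of length was not tested beyond the subtraction. With rows summed the values were 0.82 for Prmt2, 0.95 for Ehmt2, -1.07 for Kdm4a, -0.29 for Jmjd1c and 0.06 for Suz12, of which only Suz12 turned sign. After subtraction of the like-length median no difference of the effects turned sign. The values were 1.35 for Prmt2, 1.07 for Ehmt2, 0.65 for Prmt1, 0.50 for Setd8 and 0.35 for Suv39h1. They were -0.99 for Kdm4a, -0.72 for Kdm4b, -0.70 for Kdm5b, -0.68 for Kdm6b, -0.25 for Suz12, -0.23 for Kdm3b, -0.20 for Jmjd1c and -0.02 for Setd7. The opposite directions themselves did not all remain after this subtraction. Kdm3b was then above 0 with 4-OHT in both genotypes, at 0.07 in Meis1f/f and 0.28 in control cells. So was Setd7, at 0.08 and 0.09, and Suz12 was at 0.002 in control cells.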

How the results depend on the processing

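No paired analysis was possible because each group has 1 library. Member medians stayed within the 95% order-statistic interval over members under all 8 alternatives in all 5 comparisons. That interval treats the 56 genes as independent, which they are not. It is also wide beside the medians, at -0.31 to 0.12 around a median of 0.01 between the vehicle libraries. Staying within it therefore cannot show that the medians are stable. Medians this close to 0 changed sign in places, and counts of 0 to 3 members moved easily. With 4-OHT in Meis1f/f cells the count higher (3) was 0 with a pseudocount of 5, 1 (Prmt7) with rows summed, 4 with a pseudocount of 0.1 (Prdm16 added), 2 with a floor of 5 FPKM (Prmt7, Suv420h2) or either rescaling (Prmt2, Prmt7) and 2 with the length trend removed (Prdm16, Prmt7), and the count lower (0) was 2 with a pseudocount of 0.1 or median ratio rescaling and 1 with upper quartile rescaling. In control cells the count lower (0) was 1 with a pseudocount of 0.1 or the length trend removed. In the difference of the effects the count higher (2) was 0 with a pseudocount of 5 or rows summed and 1 with a floor of 5 FPKM, median ratio or upper quartile rescaling; the count lower (1) was 3 with a pseudocount of 0.1, 0 with a pseudocount of 5 or the length trend removed, and 2 with rows summed. Between the vehicle libraries the count higher (2) was 0 with a pseudocount of 5 or the length trend removed, and the count lower (0) was 2 with a pseudocount of 0.1 and 1 with rows summed. Between the 4-OHT libraries the count higher (0) was 1 with a pseudocount of 0.1. The cause was not tested. Median ratio rescaling shifted the median of all genes with 4-OHT in Meis1f/f cells by -0.12 (log2), and the member median there was -0.04 under it and -0.01 under upper quartile rescaling, against 0.08 as deposited. Of 1660 values of named genes under alternatives, 215 moved by more than the margin of their counting interval and 0 called differences changed sign. Counting error is widest, relative to the level, in low members such as Prdm16 and Prmt2.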
